A study of Mus musculus with 6 samples.

Results

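The transcripts described here encode the 6 mouse peroxiredoxins (Prdx1 to Prdx6), superoxide dismutases 1 and 2 (Sod1 and Sod2) and thioredoxins 1 and 2 (Txn1 and Txn2). The members were chosen by symbol, and all 10 were found among the 24255 genes of the expression table. Superoxide dismutases convert superoxide to hydrogen peroxide, peroxiredoxins reduce the peroxide with a reactive cysteine, and thioredoxins reduce the oxidized peroxiredoxins. A fully-grown oocyte stores the mRNAs and proteins it will use until the embryonic genome is switched on, and its many mitochondria are a source of superoxide.

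RNA-Seq libraries were made from germinal vesicle (GV)-stage fully-grown oocytes, which are immature and held in the prophase of meiosis I. There were 3 libraries from wild type (WT) females and 3 from Lsm14b-KO females, each from 20 pooled oocytes collected 46 h after 5 IU of PMSG, a gonadotropin that stimulates follicle growth. The KO females were homozygous for Lsm14b tm1a(KOMP)Mbp, an allele with a reporter cassette inserted in the gene, and the study describes the line as C57BL/6J. The insertion acts in the whole body, so the somatic cells of the ovary carried it too. LSM14B is an RNA-binding protein. Nothing in the labels says whether the libraries of a group came from separate females, so the p-values below measure the spread between libraries, which may be technical. Expression was given as FPKM, a fragment number scaled to the size of the library and per length of transcript, which allows levels of different genes to be set side by side.

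The WT libraries held 2.78, 3.98 and 1.72 FPKM of Lsm14b, and the KO libraries listed it at 0, 0 and 0.102 FPKM (limma, adjusted p = 0.0038). All 10 oocyte markers were detected, with summed levels of 43290 to 54470 FPKM in WT and 27920 to 70270 FPKM in KO oocytes. Of 12 cumulus and granulosa cell markers, 4 including Foxl2 and Amh were at 0 in all 6 libraries, and the sums were 9.35 to 13.5 FPKM in WT and 5.59 to 9.61 FPKM in KO. The most abundant of them, Cyp19a1 (aromatase), was at 8.26 to 11.5 FPKM in WT and 3.01 to 5.76 FPKM in KO and was called lower (limma, adjusted p = 0.0426). Fshr, the receptor for follicle-stimulating hormone, was at 0.349 to 1.68 FPKM in WT and 1.82 to 2.08 FPKM in KO, with groups apart in the other direction (adjusted p = 0.0923). The part of such cells in the results below was not tested. The 7 red blood cell markers in the table, globins included, were at 0 in every library. Of 5 leukocyte markers, 3 were at 0, and their sums did not exceed 0.733 FPKM. The FPKM of all genes summed to 1141324 to 1244182 in the WT libraries and 564671 to 1029728 in the KO libraries, while relative sequencing depth was 1 to 1.14 in WT and 1.33 to 2.17 in KO. Libraries were less alike within the KO group than within WT. Across genes, which are not independent, the log2 values of the WT libraries correlated with each other at r = 0.981 to 0.986, KO replicate 1 with KO replicates 2 and 3 at 0.917 and 0.96, and KO replicates 2 and 3 at 0.974. Against the WT libraries the values were 0.952 to 0.954 for KO replicate 1, 0.867 to 0.8895 for KO replicate 2 and 0.917 to 0.929 for KO replicate 3. Calls of named genes that were gained or lost without KO replicate 1 are given with and without it.

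The reactive cysteine is shared by all classes of peroxiredoxin, and the sequence around its codon is shown to make the family relation visible. Each line gives 27 nt of coding sequence, 5′ to 3′, with the codon of the reactive cysteine in capitals. The sequences were read from GENCODE vM21 transcripts on GRCm38, the assembly also called mm10.
Prdx1, codon 52: tttacttttgtgTGTcccacggagatc
Prdx2, codon 51: ttcacttttgttTGCcccacggagatc
Prdx3, codon 109: ttcacatttgtgTGTcctacagaaatt
Prdx4, codon 127: ttcacctttgtgTGTccaactgaaatc
Prdx5, codon 96: tttacacctggcTGTtctaagacccac
Prdx6, codon 47: tttaccccagtgTGCaccacagaactt
Prdx1 to Prdx4 belong to the typical 2-Cys class, whose members pair head to tail and use a second cysteine of the partner. Prdx5 is the atypical 2-Cys member, and Prdx6 is the 1-Cys member, which is reduced by glutathione rather than thioredoxin. The thioredoxins carry a pair of cysteines, and the same kind of window is centred on the codon of the one that attacks the substrate.
Txn1, codon 32: tctgctacgtggTGTggaccttgcaaa
Txn2, codon 90: catgcacagtggTGTggcccctgcaag
Codons are counted from the start codon, so those of Prdx3, Prdx5 and Txn2, whose proteins are imported into mitochondria, and of Prdx4, a secretory pathway protein, include the targeting sequence. The windows lie on GRCm38 at chr4:116691811-116691837 on the plus strand for Prdx1, chr8:84970471-84970497 on the plus strand for Prdx2, chr1:161247356-161247382 on the minus strand for Prdx6 and chr4:57951818-57951844 on the minus strand for Txn1, each within 1 coding exon. Those of Prdx3, Prdx4, Prdx5 and Txn2 cross an exon junction.

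The members covered a very wide range of levels in WT oocytes. Prdx1, a cytosolic peroxiredoxin, was at 3185, 3438 and 3208 FPKM in the WT libraries. Prdx2, its close cytosolic relative, was at 2362, 2687 and 2358 FPKM. These 2 transcripts stood far above the rest of the family. Sod1, the cytosolic copper and zinc dismutase, followed at 346, 360.1 and 374 FPKM. Txn1, the cytosolic thioredoxin, was at 55.7, 40.9 and 44.6 FPKM. Prdx3, the mitochondrial 2-Cys peroxiredoxin, was at 17.4, 18.5 and 18.8 FPKM. Each of these levels was separated from the next in the order, with no WT library of one gene reaching a WT library of the other. Txn2, the mitochondrial thioredoxin that serves Prdx3, was at 7.74, 9.98 and 11.04 FPKM, also apart from its neighbours. The remaining 4 members were at 3.38 FPKM or less, and neighbours among them overlapped. Prdx6 was at 2.84, 2.60 and 3.38 FPKM, and Sod2, the manganese dismutase of mitochondria, was at 2.27, 2.98 and 1.65 FPKM. Prdx5, found in mitochondria, peroxisomes and the cytosol, was at 2.43, 0 and 1.14 FPKM, and Prdx4 was listed at 0, 0 and 0.342 FPKM. In both the dismutases and the thioredoxins, the cytosolic form was thus the higher in all WT libraries.

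**Figure D1:**
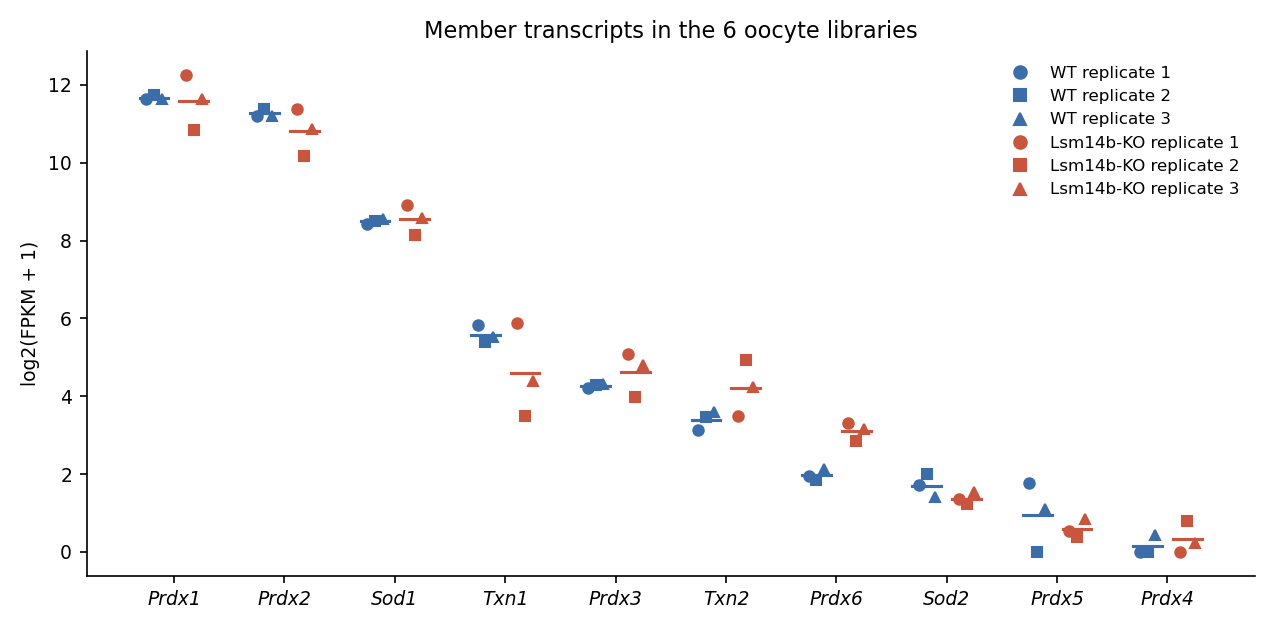
Expression of the 10 members, as log2(FPKM + 1) on the y axis, in 3 WT and 3 Lsm14b-KO libraries. Each point is a library and each bar the group mean of the log2 values; the WT points of most members lie close together, the KO points are spread further, and Prdx6 is the one member whose 3 KO points all lie above its 3 WT points.

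In KO oocytes Prdx1, Prdx2 and Sod1 again led the order, with fewer clear steps between neighbours. Prdx1 was at 4928, 1844 and 3164 FPKM in KO replicates 1, 2 and 3. Prdx2 was at 2690, 1150 and 1882 FPKM, so that its highest library passed the lowest of Prdx1. Sod1, at 485, 280.1 and 383 FPKM, remained apart from the genes above and below it. Txn1 was at 58.3, 10.3 and 19.9 FPKM and overlapped with Prdx3, which was at 32.9, 14.7 and 27.0 FPKM. Txn2, at 10.2, 29.3 and 17.8 FPKM, overlapped with Prdx3 as well. Prdx6 was at 8.91, 6.23 and 7.88 FPKM, apart from Txn2 above it and from Sod2 below it. Sod2 was at 1.55, 1.34 and 1.89 FPKM, Prdx5 at 0.442, 0.310 and 0.807 FPKM, and Prdx4 at 0, 0.733 and 0.161 FPKM. The 10 members together took 0.481 to 0.560% of the FPKM sum in WT libraries and 0.591 to 0.814% in KO libraries. FPKM from pooled oocytes gives no number of mRNA molecules per oocyte, and a change in RNA per oocyte cannot be told apart from one in the share of a transcript.

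The spread among the KO libraries was wide in these genes. KO replicate 2 was the lowest of the KO libraries in 8 of the 9 members that passed the filter described next, all but Txn2, in which it was the highest. KO replicate 1 was the highest in 6 of the 9. Over all 6398 genes tested, KO replicate 2 was the lowest in 41.6% and KO replicate 1 the highest in 46.2%. The median SD of log2(FPKM + 1) was 0.144 for the 9 members among WT libraries and 0.578 among KO libraries, beside 0.211 and 0.366 over all tested genes. Txn1 varied most, with a 5.67-fold gap between its highest and lowest KO library, against 1.36-fold in WT. The FPKM of all genes also summed lowest in KO replicate 2 (564671) and highest in KO replicate 1 (1029728). With every library scaled to the same sum, the standard error of the genotype difference (fit described next) fell in Prdx1 from 0.377 to 0.205. It fell in Sod1 from 0.3095 to 0.203, fell also in Prdx2, Prdx3, Prdx5 and Txn1, and rose in Prdx6, Sod2 and Txn2. The part of library scale in this spread was not tested.

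The expression of the members was compared between genotypes on log2(FPKM + 1) values with limma, with Benjamini-Hochberg adjustment of the p-values over the 6398 genes that reached 1 FPKM in at least 1 library. Of the 10 members, 9 were tested and Prdx4 was not, as it stayed under 1 FPKM throughout (exact permutation test, two-sided p = 0.7). Prdx5 passed the filter through 2 WT libraries alone. At an adjusted p under 0.05, 1 of the 9 members was called, Prdx6, which was higher in KO oocytes. The background was high, since 21.6% of all tested genes were called. Of the 1383 calls, 29.5% were of higher expression in KO, but this share was 63.2% after scaling every library to the same sum (TPM), 42.4% after quantile normalization and 43.3% after a correction for transcript length and GC content. These scalings raised the median of all genes by 0.475, 0.144 and 0.155 on the log2 scale, so the direction of small changes depended on the scaling.

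Prdx6 was the only member in which the groups did not overlap. Its lowest KO library (6.23 FPKM) lay above its highest WT library (3.38 FPKM), and mean levels were 7.67 ± 1.36 FPKM in KO and 2.94 ± 0.398 FPKM in WT oocytes (SD, n = 3 each), a 2.61-fold difference. The fitted log2 fold change was 1.13 with a standard error of 0.219 and a 95% confidence interval of 0.63 to 1.64 (limma, adjusted p = 0.0129). Non-overlapping groups were found in 45% of all tested genes, against 1 of 9 members. The exact permutation test gave p = 0.1, the smallest value that 3 libraries against 3 allow. After subtraction of the median over the tested genes, the log2 fold change of Prdx6 was 1.21 with FPKM as deposited and 1.31 with TPM. It was 1.23 with quantile normalization and 1.04 after the length and GC correction. The call, made on the values before this subtraction, held in each. It was lost without WT replicate 1 (limma, adjusted p = 0.0703), WT replicate 2 (adjusted p = 0.0724) or KO replicate 3 (adjusted p = 0.0668). Over the 14 alternatives computed, the adjusted p was 0.00637 to 0.0724 and the log2 fold change 1.03 to 1.71. Prdx6 lies at chr1:161240112-161251219 on the minus strand of GRCm38, with no other gene annotated over it and no near-identical copy found. Besides its peroxidase activity, the encoded enzyme has a phospholipase activity and repairs oxidized phospholipids.

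Of the tested peroxiredoxins, none but Prdx6 passed the test with FPKM as deposited. Prdx1 had a log2 fold change of -0.10 (95% confidence interval -0.96 to 0.77, limma, adjusted p = 0.859), since KO replicate 1 was above and KO replicate 2 below every WT library. KO replicate 3, at 3164 FPKM, was just below the lowest WT library (3185 FPKM). In Prdx2 the value was -0.45 (95% confidence interval -1.27 to 0.36, adjusted p = 0.353). Both signs turned under TPM, to 0.60 for Prdx1 and 0.24 for Prdx2, and under quantile normalization, to 0.71 and 0.36, where Prdx1 was called (adjusted p = 0.0407). Prdx3 had a log2 fold change of 0.36 (95% confidence interval -0.40 to 1.12, adjusted p = 0.426), and 2 of its 3 KO libraries were above all WT libraries. It was called with TPM, at a log2 fold change of 1.02 (adjusted p = 0.0335). Prdx5 had a log2 fold change of -0.37 (95% confidence interval -1.33 to 0.60, adjusted p = 0.521), and its WT libraries spanned those of the KO group.

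Neither dismutase passed the test with FPKM as deposited. The log2 fold change of Sod1 was 0.05 (95% confidence interval -0.66 to 0.77, limma, adjusted p = 0.906), with its KO libraries on both sides of the WT libraries. Sod1 was called higher in KO with TPM (log2 fold change 0.75, adjusted p = 0.0393), with quantile normalization (0.84, adjusted p = 0.0349) and after the length and GC correction (0.80, adjusted p = 0.0278). Its annotated transcript of 641 nt was the shortest among the members. Sod2 had a log2 fold change of -0.33 (95% confidence interval -0.84 to 0.17, adjusted p = 0.281), and its groups overlapped. With TPM its sign turned, to 0.13.

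The thioredoxins had fitted values of opposite sign and wide intervals. Txn1 had a log2 fold change of -0.98 (95% confidence interval -2.27 to 0.30, limma, adjusted p = 0.217). KO replicates 2 and 3 lay below all WT libraries, while KO replicate 1 was above them. The log2 fold change of Txn1 was -0.32 with TPM, -0.62 with quantile normalization and -0.38 after the length and GC correction. Txn2 had a log2 fold change of 0.82 (95% confidence interval -0.05 to 1.69, adjusted p = 0.142), with KO replicates 2 and 3 above all WT libraries and KO replicate 1 within their range. Its log2 fold change was 1.48 with TPM (adjusted p = 0.0741). Without KO replicate 1, Txn1 was called lower (log2 fold change -1.63, adjusted p = 0.00575) and Txn2 higher (1.19, adjusted p = 0.0126). In that fit Prdx2 was called lower as well (-0.74, adjusted p = 0.0453) and Prdx6 stayed higher (1.03, adjusted p = 0.00742). These are 4 of 9 members, where 45.3% of all tested genes were called. Whether the other KO libraries or KO replicate 1 stand for the genotype was not tested.

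The number of members called varied with the scaling. With TPM 3 members were called, namely Prdx3, Prdx6 and Sod1, beside 20.6% of all genes. Quantile normalization gave 3 as well, Prdx1, Prdx6 and Sod1, beside 19.9% of all genes. After the length and GC correction there were 2, Prdx6 and Sod1, beside 22% of the genes with a known length. All of these calls were of higher expression in KO.

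**Figure D2:**
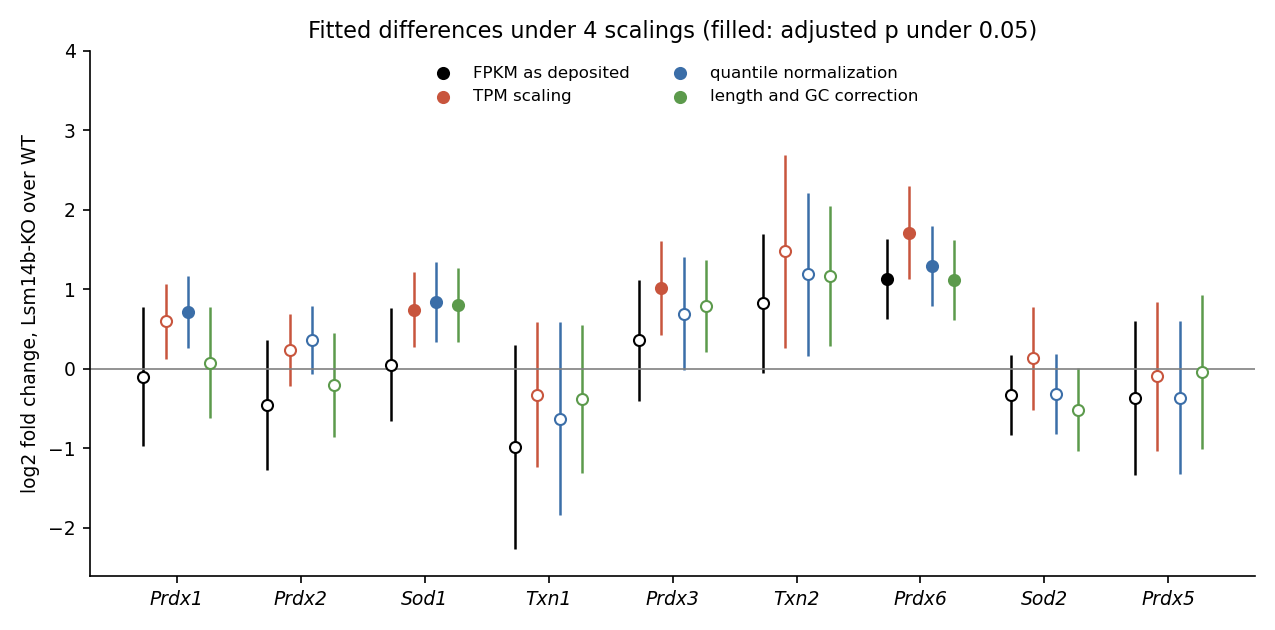
Fitted log2 fold changes of the 9 tested members (y axis, Lsm14b-KO over WT) under 4 scalings, with bars for 95% confidence intervals. Filled points have an adjusted p under 0.05; Prdx6 is filled under all 4 scalings, at 1.12 to 1.71, and the points of Prdx1, Prdx2 and Sod2 fall on both sides of 0.

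The ratio of 2 members within a library does not depend on a factor that scales the whole library, so related members were also compared this way, in 4 pairs. The folds below are of FPKM. The log2 ratios are of (FPKM + 1), and in low genes such as Sod2 these depend in part on the scale of the library. Prdx1 exceeded Prdx2 by 1.35-, 1.28- and 1.36-fold in WT libraries and by 1.83-, 1.60- and 1.68-fold in KO libraries. All KO ratios were above all WT ratios, and the mean log2 ratio was higher by 0.358 in KO (exact two-sided permutation test, p = 0.1, and 0.2 adjusted over the 4 pairs). Prdx1 exceeded the mitochondrial Prdx3 by 184-, 186- and 171-fold in WT libraries and by 149.6-, 125- and 117-fold in KO libraries. Here all KO ratios were below all WT ratios, with a mean log2 difference of -0.46 (exact permutation p = 0.1, adjusted 0.2). With 3 libraries against 3 no pair could reach a p under 0.1, and neither difference passed the correction. Both kept their sign and the separation of the groups when each member was first corrected for length and GC content, at 0.28 and -0.71.

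The cytosolic to mitochondrial ratios of the dismutases and thioredoxins overlapped between genotypes. Sod1 exceeded Sod2 by 153-, 121- and 226-fold in WT libraries and by 314-, 208- and 203-fold in KO libraries. The log2 difference was 0.39 on (FPKM + 1) (exact permutation p = 0.3, adjusted 0.3), and 0.55 on FPKM with nothing added. On (FPKM + 1) it was 0.19 to 0.56 with a library left out. After the length and GC correction it was 1.31 and the groups did not overlap. Txn1 exceeded Txn2 by 7.19-, 4.10- and 4.04-fold in WT libraries. In the KO libraries the ratio was 5.70 in replicate 1, 0.351 in replicate 2 and 1.12 in replicate 3. The log2 difference was -1.81 on (FPKM + 1) (exact permutation p = 0.3, adjusted 0.3), and -1.91 on FPKM with nothing added. KO replicate 2 was the only library in which Txn2 was listed above Txn1. Without KO replicate 1 the difference in log2 ratio was -2.82, and without KO replicate 2 it was -0.91.

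**Figure D3:**
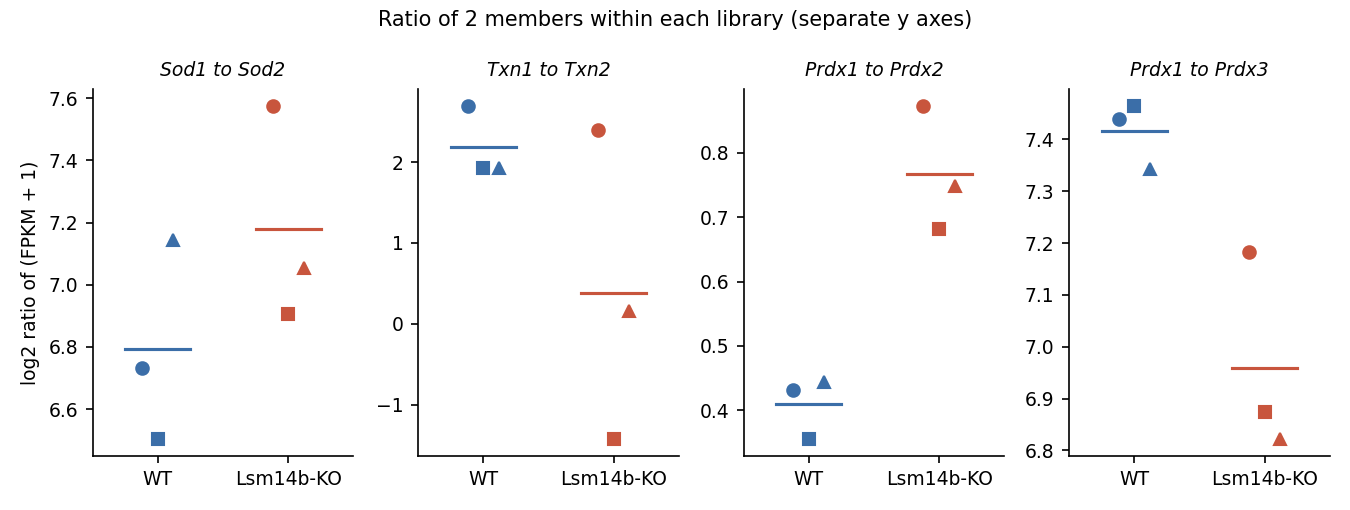
Log2 ratios of (FPKM + 1) for 4 pairs of members within each library (points, circle for replicate 1, square for 2, triangle for 3) with group means (bars); the y axes differ between panels. The KO points lie above the WT points for Prdx1 to Prdx2, below them for Prdx1 to Prdx3, and overlap for the other pairs.

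Several members share sequence or a locus with other genes, which bears on how fragments were assigned. Prdx1 (chr4:116685544-116700822, plus strand) had 2 processed pseudogenes of at least 95% identity, and Prdx2 (chr8:84969587-84974834, plus strand), Sod1 (chr16:90220754-90226329, plus strand) and Txn1 (chr4:57943373-57956411, minus strand) had 1 each. None of these copies is listed in the table, and the levels of the 4 members are uncertain to the extent that fragments were split. The locus given for Prdx1 is shared with AV051173, which was at 7.23, 6.75 and 7.44 FPKM in WT and 3.14, 1.85 and 2.23 FPKM in KO libraries. Prdx5 (chr19:6906697-6910106, minus strand) overlaps Trmt112 of the opposite strand over 360 nt. Trmt112 was at 67.8, 78.2 and 68.0 FPKM in WT and 42.3, 14.5 and 20.6 FPKM in KO libraries, far above Prdx5, and was called lower in KO (limma, log2 fold change -1.57, adjusted p = 0.03). As strandedness of the libraries is not stated, fragments in that overlap cannot be told apart. Prdx2 also overlaps Rnaseh2a and Junb, and Sod1 overlaps Scaf4, all of the opposite strand. Those genes were at 0.319 FPKM or less in every library. Prdx3 (chr19:60864051-60874556), Prdx4 (chrX:155323918-155340754) and Txn2 (chr15:77915047-77929006), all on the minus strand, and Sod2 (chr17:13006846-13040063, plus strand) had neither a copy nor an overlapping gene.

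The genes that work with the members were taken from 4 lists with 57 genes, of which 33 were tested. Of these, 3 were called, 2 higher and 1 lower in KO, which is 9.09% beside the 21.6% of all genes. Without KO replicate 1, 15 of the 33 were called, where 45.3% of all tested genes were.

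In the thioredoxin system list, 1 of 6 tested genes was called higher and none lower, with a median log2 fold change of -0.18 beside -0.08 over all tested genes. The gene called was Txnrd1, the cytosolic thioredoxin reductase that recharges Txn1 with electrons from NADPH. It was at 0.908, 0.723 and 1.12 FPKM in WT and 1.74, 4.62 and 2.85 FPKM in KO libraries, so the groups did not overlap (log2 fold change 1.03, standard error 0.279, adjusted p = 0.0368). The call held without KO replicate 1 (adjusted p = 0.00556). It was lost with no filter on low values (adjusted p = 0.0889) and when any other library was left out (adjusted p up to 0.129, log2 fold change 0.77 to 1.104). Txnip, which binds and inhibits thioredoxin, was at 29.0, 25.6 and 39.0 FPKM in WT and 30.1, 157.5 and 80.1 FPKM in KO libraries (log2 fold change 1.22, adjusted p = 0.141, and 1.84 with adjusted p = 0.00523 without KO replicate 1). Txndc9, a thioredoxin-fold protein that binds the CCT chaperonin, was at 1173, 1070 and 851 FPKM in WT and 1286, 254 and 436 FPKM in KO libraries (log2 fold change -0.97, adjusted p = 0.225). It was called lower without KO replicate 1 (-1.61, adjusted p = 0.00459), and its value was -0.27 with TPM and -0.23 with quantile normalization. In Txndc9, as in Txn1, KO replicate 1 was the highest of all libraries and KO replicate 2 the lowest. The mitochondrial reductase Txnrd2, Srxn1, which repairs over-oxidized 2-Cys peroxiredoxins, and Sesn2 were listed at 0 in all 6 libraries.

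Of 9 tested genes of the glutathione system, 1 was called higher and none lower, with a median log2 fold change of -0.07. Gpx1, the main cytosolic glutathione peroxidase, was at 3.27, 5.09 and 5.62 FPKM in WT and 11.9, 20.4 and 18.2 FPKM in KO libraries (log2 fold change 1.65, standard error 0.294, adjusted p = 0.0095). All 3 KO libraries were above the WT libraries. The groups were also apart in 4 further genes of the list that were not called, higher in KO for Gstp1 and lower for Gpx4, Glrx3 and Glrx5. Groups were apart in 45% of all tested genes. The Gpx1 call was lost without WT replicate 1 (adjusted p = 0.0594) or KO replicate 3 (adjusted p = 0.0572). The glutaredoxin gene Glrx was expressed at a level close to that of Prdx1, at 3198, 3004 and 3272 FPKM in WT and 3835, 2219 and 3184 FPKM in KO libraries (log2 fold change -0.07, adjusted p = 0.865). Its sign turned with TPM (0.62, adjusted p = 0.0429) and quantile normalization (0.74, adjusted p = 0.0305), and both fits called it higher in KO. Ggct, an enzyme of glutathione breakdown, had WT levels of 434 to 487 FPKM and KO levels of 174 to 509 FPKM (log2 fold change -0.66, adjusted p = 0.255). Without KO replicate 1 it was called lower (-1.07, adjusted p = 0.0118), while its value was 0.03 with TPM and 0.12 with quantile normalization. The peroxidase genes Gpx2, Gpx7 and Gpx8 were at 0 in all libraries.

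Among other antioxidant genes and their regulators, 1 of 9 tested genes was called lower and none higher, with a median log2 fold change of 0.00. Msra, which repairs oxidized methionine, fell from 21.6, 16.6 and 15.2 FPKM in WT to 8.13, 2.80 and 4.35 FPKM in KO libraries (log2 fold change -1.71, standard error 0.348, adjusted p = 0.0149). That call was lost without WT replicate 1, 2 or 3 or KO replicate 3, with adjusted p of 0.0594 to 0.0797. Park7, whose product protects against oxidative stress, was at 54.2, 67.0 and 61.9 FPKM in WT and 44.7, 20.4 and 25.7 FPKM in KO libraries (log2 fold change -1.06, adjusted p = 0.0598). Park7 was called lower without KO replicate 1 (-1.37, adjusted p = 0.00266), with genes of a mean of at least 5 FPKM alone (adjusted p = 0.0442) and with no intensity trend (adjusted p = 0.0469), while its value with TPM was -0.39. Hmox2, the constitutive heme oxygenase, was at 44.2 to 52.0 FPKM in WT and 20.6 to 43.3 FPKM in KO libraries (log2 fold change -0.68, adjusted p = 0.158). It was called lower without KO replicate 1 (-0.96, adjusted p = 0.0106), and its value with TPM was -0.0055. The groups did not overlap in 5 of the 9 genes, lower in KO for Msra, Park7 and Hmox2 and higher for Msrb3 and Oxr1, beside 45% of all tested genes. Msrb3 and Oxr1 passed the filter through their KO libraries alone, so their direction is tied to the filter. Catalase, which removes peroxide in peroxisomes, was under the filter, with 0.11 FPKM in WT replicate 1 and 0 in the other libraries. Extracellular Sod3 was at 0 throughout.

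In the list of oxidative folding in the endoplasmic reticulum, none of the 9 tested genes was called. All 9 fitted values were above 0, but the share of all tested genes above 0 was not counted. Pdia3 passed the filter through its KO libraries alone, so its sign is tied to the filter. The groups did not overlap in 3 of the 9 genes, Pdia3, Pdia4 and Ero1lb, all higher in KO, beside 45% of all tested genes. The median log2 fold change of the 9 genes was 0.64 beside -0.08 over all tested genes, and 1.11 beside 0.40 with TPM. These genes were low, with WT means of 0.73 to 3.12 FPKM. The median over all genes varied with level, at -0.45 for genes of a mean of at least 5 FPKM, and genes of like level were not compared. Pdia6, a protein disulfide isomerase, was at 2.03, 2.01 and 3.53 FPKM in WT and 3.35, 8.46 and 7.997 FPKM in KO libraries (log2 fold change 1.06, adjusted p = 0.0612). It was called higher after the length and GC correction (1.09, adjusted p = 0.0465) and without KO replicate 1 (1.42, adjusted p = 0.00453). Erp29, another resident of this compartment, was at 2.48 to 3.50 FPKM in WT and 3.10 to 8.26 FPKM in KO libraries (log2 fold change 0.64, adjusted p = 0.168, and 0.95 with adjusted p = 0.0157 without KO replicate 1). In both, KO replicate 1 lay within the WT range.

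**Figure D4:**
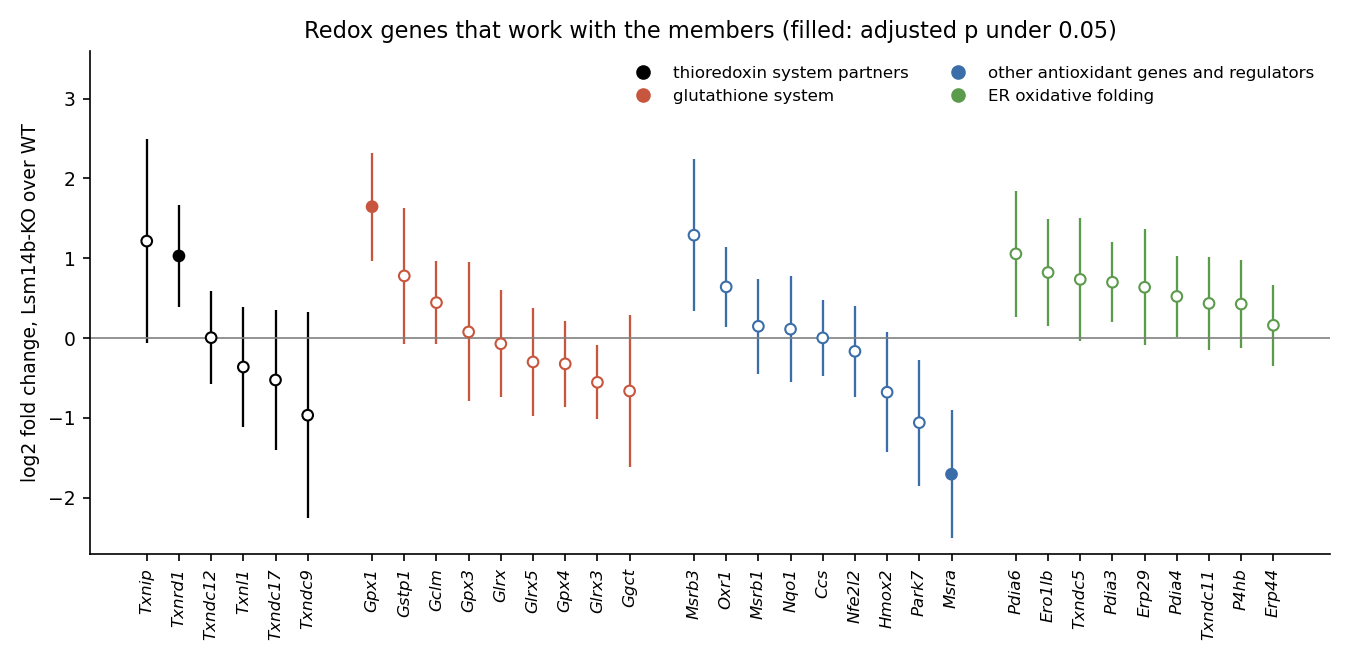
Fitted log2 fold changes (y axis, Lsm14b-KO over WT) of the 33 tested genes that work with the members, grouped by list, with 95% confidence intervals as bars. Filled points, with an adjusted p under 0.05, are Txnrd1 and Gpx1 above 0 and Msra below 0, and all 9 points of the endoplasmic reticulum list lie above 0. Msrb3, Oxr1 and Pdia3 passed the filter through their KO libraries alone.

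The genes whose profile over the 6 libraries was nearest to that of Prdx1, the member with the highest mean level, were Uchl3, Utp14a and Tmsb10. Profiles were compared as log2(FPKM + 1) centred on the gene's mean, and the root mean square differences were 0.06, 0.08 and 0.08 on the log2 scale. As follows from this choice, each of the 3 genes had its highest level in KO replicate 1 and its lowest in KO replicate 2, like Prdx1. Tmsb10 was at 8253 to 9055 FPKM in WT and 5263 to 12830 FPKM in KO libraries.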

How the data were processed

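Deposited FPKM values of 6 RNA-Seq libraries (3 WT and 3 Lsm14b-KO, grouped by sample title and genotype label) were analysed. Per the labels and the study's methods, the authors amplified total RNA with Smart-seq2, sequenced 150 bp pairs, aligned trimmed reads to mm10 with TopHat2 (version 2.0.13) and computed the deposited FPKM with Cufflinks (version 2.2.1). Cuffnorm and Cuffdiff are named among the processing tools as well. The library kit is named in conflicting ways, and the annotation and strandedness are not given in the sources used here. The table also holds the authors' fold changes, p-values and q-values, which were not used. It holds no counts, and a gene listed at 0 can be a failed estimate.

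Values were transformed to log2(FPKM + 1), so fold changes of low genes are understated. Genes that reached 1 FPKM in any library entered a limma fit (version 3.58.1, R 4.3.3) with genotype as the only term and an intensity trend in eBayes, after a check on simulated data, with Benjamini-Hochberg adjustment over 6398 genes. Single values were compared by exact two-sided permutation tests (scipy 1.17.1). Relative depth was estimated from the steps between low FPKM values. GENCODE vM21 transcripts gave length and GC content, which were found for 98.8% of tested genes. Copies were searched for with blastn 2.17.0 (at least 95% identity over 200 nt).

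The members, lists and tests were chosen with earlier results of these data known. Named were all members, Lsm14b, the 3 genes nearest in profile to the highest member and, per list, the genes past the threshold (up to 4 with the largest change on each side), with the 2 of highest mean FPKM where fewer than 2 passed. Markers, Trmt112, AV051173, uncalled genes with groups apart and genes at or near 0 were named after their values were seen. Alternatives were a pseudocount of 0.1, no filter, a mean of at least 5 FPKM, TPM scaling, quantile normalization, a loess correction for length and GC content, no intensity trend, a replicate block, and each library left out.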

Additional observations from a re-analysis of the deposited data

How the results depend on the processing

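The number of genes called (1383) was 720 with no filter, 862 with a mean of at least 5 FPKM and 315 to 2898 with a library left out, highest without KO replicate 1 and lowest without KO replicate 3. The number of members called (1) was 3 with TPM scaling, 3 with quantile normalization, 2 after the length and GC correction and 0 to 4 with a library left out; it was 0 without WT replicate 1, WT replicate 2 or KO replicate 3, and 4 without KO replicate 1. For the 33 tested partner genes, 3 calls became 8 with TPM scaling, 5 after the length and GC correction and 0 to 15 with a library left out, highest without KO replicate 1. Whether same-numbered WT and KO libraries were paired is not known. Their deviations from the group means correlated at r = 0.19, -0.13 and 0.02. WT and KO libraries of different number gave -0.275 to 0.306, so these values cannot decide it. The replicate block gave 1244 genes, the same 1 member and 5 partner genes, Pdia6 among them (limma, adjusted p = 0.0428). Log2 fold changes turned sign in Prdx1 (0.60 with TPM scaling, 0.71 with quantile normalization, 0.0772 after the length and GC correction, -0.44 to 0.27 with a library left out), Prdx2 (0.24 with TPM scaling, 0.36 with quantile normalization), Sod2 (0.13 with TPM scaling), Prdx5 (-0.85 to 0.0410 with a library left out) and Sod1 (-0.13 to 0.26 likewise). They also turned in Ggct (0.0280 with TPM scaling, 0.12 with quantile normalization) and Glrx (0.62, 0.74 and, after the length and GC correction, 0.41, with -0.25 to 0.15 with a library left out). The cause was not tested. In the 4 within-library ratios no alternative turned the sign, and the length and GC correction of ratios was added after seeing the data. Among the fits of single members under an alternative, 105 kept the sign and the side of the threshold, 7 gained the call with the same sign, 3 lost it and 9 turned sign, 1 of which (Prdx1 with quantile normalization) was also called. Without counts, the precision that depth gives to members near 1 FPKM is unknown.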
